A study of Mus musculus with 16 samples.

Results

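The mitochondrial carriers named Slc25a were followed in interscapular brown fat, the heat-producing fat depot between the shoulder blades of the mouse. The members were all rows of the deposited count table whose gene symbol starts with Slc25a, with pseudogene names left out. They came to 47 of the 38924 gene identifiers in the table. Of these, 40 had enough counts to be tested among 14103 genes, and 7 did not. The 16 bulk RNA-seq libraries came from C57BL/6J mice that were 13 weeks old at the end of 4 weeks at 1 of 2 room temperatures, 4 libraries to a group. The groups were Akt2 knockouts kept at 22 °C, wild-type littermates kept at 22 °C, Akt2 knockouts kept at 30 °C and wild-type littermates kept at 30 °C. A temperature of 30 °C is thermoneutral for mice, so they need little extra heat, and 22 °C is a mild cold. The knockout (KO) was made with UCP1-CreER, a Cre recombinase driven by the Ucp1 promoter of brown adipocytes and switched on by tamoxifen, so other cells of the depot kept Akt2, a kinase of the insulin pathway. The labels number the samples of a group and do not say that each came from a different animal, and the p-values below therefore reflect variation among the samples sequenced, which may be partly technical.

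SLC25 carriers are small proteins of the inner mitochondrial membrane that swap metabolites, nucleotides and cofactors between the matrix and the cytosol. Uncoupling protein 1, the heat producer of brown fat, belongs to the same protein family under another name. In fat that makes lipid from glucose, the citrate carrier Slc25a1 brings the carbon of acetyl-CoA out of the matrix for fatty acid synthesis, while the carnitine-acylcarnitine carrier Slc25a20 brings fatty acids in to be burned. The phosphate carrier and the ADP/ATP carriers feed ATP synthase.

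Slc25a1 and Slc25a48 were the members whose knockout effect differed most between the temperatures, so their promoters are shown, from 250 bases before to 50 bases after the RefSeq start on GRCm38.p6. The Slc25a1 window is chr16:17928170-17928469 on the minus strand and the Slc25a48 window is chr13:56438105-56438404 on the plus strand. On GRCm38 the Slc25a1 gene itself spans 17925223 to 17928219 of chromosome 16 and the Slc25a48 gene 56438355 to 56474239 of chromosome 13, so each window holds the first bases of the transcript. Capitals mark matches to 5 motifs searched on both strands.
Slc25a1: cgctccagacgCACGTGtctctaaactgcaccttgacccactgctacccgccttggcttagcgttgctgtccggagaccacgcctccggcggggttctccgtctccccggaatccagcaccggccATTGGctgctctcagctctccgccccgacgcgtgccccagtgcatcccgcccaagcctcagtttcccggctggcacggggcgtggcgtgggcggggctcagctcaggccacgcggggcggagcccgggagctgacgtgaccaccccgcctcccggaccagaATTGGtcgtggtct
Slc25a48: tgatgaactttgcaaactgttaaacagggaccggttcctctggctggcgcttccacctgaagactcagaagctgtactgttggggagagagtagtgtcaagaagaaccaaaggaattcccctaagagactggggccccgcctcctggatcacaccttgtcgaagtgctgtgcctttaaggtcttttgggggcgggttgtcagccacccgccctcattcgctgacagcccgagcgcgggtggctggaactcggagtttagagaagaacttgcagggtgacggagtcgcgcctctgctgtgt
The Slc25a1 window held the E-box CACGTG, which starts at -239 from the gene start, and the CCAAT box in its reverse form ATTGG at -125 and at 37. The Slc25a48 window held no match. CACGTG was in 8 of the 46 promoters listed for 36 members (17.4%) and in 7.15% of all 32851 promoters of this length. CCAAT or ATTGG was in 47.8% of the member promoters and in 37.4% of all. The sterol regulatory element TCACNCCAC was in 1 of the 46 member promoters and in 1.24% of all. The FOXO element TGTTTAC and the estrogen-related receptor element TCAAGGTCA were in 0 of the 46, against 3.65% and 0.423% of all promoters. A match describes letters in the window and not a bound site.

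Library totals ran from 12751528 to 23866743 counts. Akt2 averaged 82.2 ± 6.03 CPM (counts scaled to library size, mean ± SD, n = 4) in KO and 232 ± 19.8 CPM in WT at 22 °C, and 69.4 ± 10.7 CPM in KO and 204 ± 12.9 CPM in WT at 30 °C. No KO library reached the level of a WT library. The 6 brown adipocyte markers, Ucp1 among them, were detected in every library and held 0.733% to 1.25% of counts in KO and 0.649% to 1.21% in WT at 22 °C, and 0.407% to 0.497% in KO and 0.401% to 0.443% in WT at 30 °C. Endothelial markers held 0.0765% to 0.105% in KO and 0.0621% to 0.0820% in WT at 22 °C, below the 0.123% to 0.141% in KO and 0.122% to 0.132% in WT at 30 °C. Macrophage markers were likewise lower at 22 °C, 0.0116% to 0.0140% in KO and 0.00889% to 0.0206% in WT, than at 30 °C, 0.0224% to 0.0279% in KO and 0.0208% to 0.0331% in WT. General adipocyte markers held 1.80% to 2.25% in KO and 1.52% to 2.09% in WT at 22 °C, and 1.43% to 1.65% in KO and 1.47% to 1.69% in WT at 30 °C. Because whole tissue was sequenced, fewer cells of a type and less RNA per cell cannot be told apart. Skeletal muscle markers, 12 genes of which 4 were at 0 in some library, held more than 0.1% of counts in 4 libraries. These were KO replicate 1 at 22 °C with 0.565%, KO replicates 1 and 2 at 30 °C with 0.104% and 0.348%, and WT replicate 2 at 30 °C with 0.229%. They are called muscle-bearing below. The clock genes Dbp and Arntl, which swing in opposite phase over the day, also stood apart at 22 °C. On the log2 CPM scale, Dbp minus Arntl was between -3.48 and -2.22 in KO and between -0.81 and 1.79 in WT. At 30 °C the ranges overlapped, -1.37 to 0.26 in KO and -0.57 to 0.40 in WT. Muscle and the clock entered the alternative fits named below, and the part of endothelial cells and macrophages in the results was not tested.

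Members together held 0.519% to 0.610% of counts in KO and 0.551% to 0.689% in WT at 22 °C. At 30 °C they held 0.466% to 0.477% in KO and 0.456% to 0.481% in WT. All 22 °C libraries were above all 30 °C libraries, while KO and WT overlapped at each temperature.

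Per kb of exon, the only scale on which genes are compared with each other here, Slc25a4 had the highest mean over all libraries, 220.2 CPM per kb. Slc25a1 followed with 199.5. Other high members were Slc25a39 with 118.5, Slc25a5 with 107.7 and Slc25a20 with 102.8 CPM per kb. The order was not the same in every group. In WT at 22 °C Slc25a1 led with 529.8 CPM per kb against 241 for Slc25a4, whereas in KO at 22 °C Slc25a4 led with 222 against 138 for Slc25a1. The lowest tested member was Slc25a13, an aspartate-glutamate carrier, at 0.175 CPM per kb. The 7 members under the count filter were Slc25a2, Slc25a18, Slc25a21, Slc25a31, Slc25a41, Slc25a43 and Slc25a54. Of these Slc25a31, an ADP/ATP carrier of testis, had the most counts in a single library, 35 in KO replicate 3 at 22 °C. Exons of 12 of the 47 members overlap those of a gene on the other strand, among them Slc25a10, Slc25a11, Slc25a23, Slc25a25, Slc25a26, Slc25a33, Slc25a35, Slc25a37 and Slc25a46. Without a stated strand setting, reads from such overlaps cannot be told apart.

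**Figure D1:**
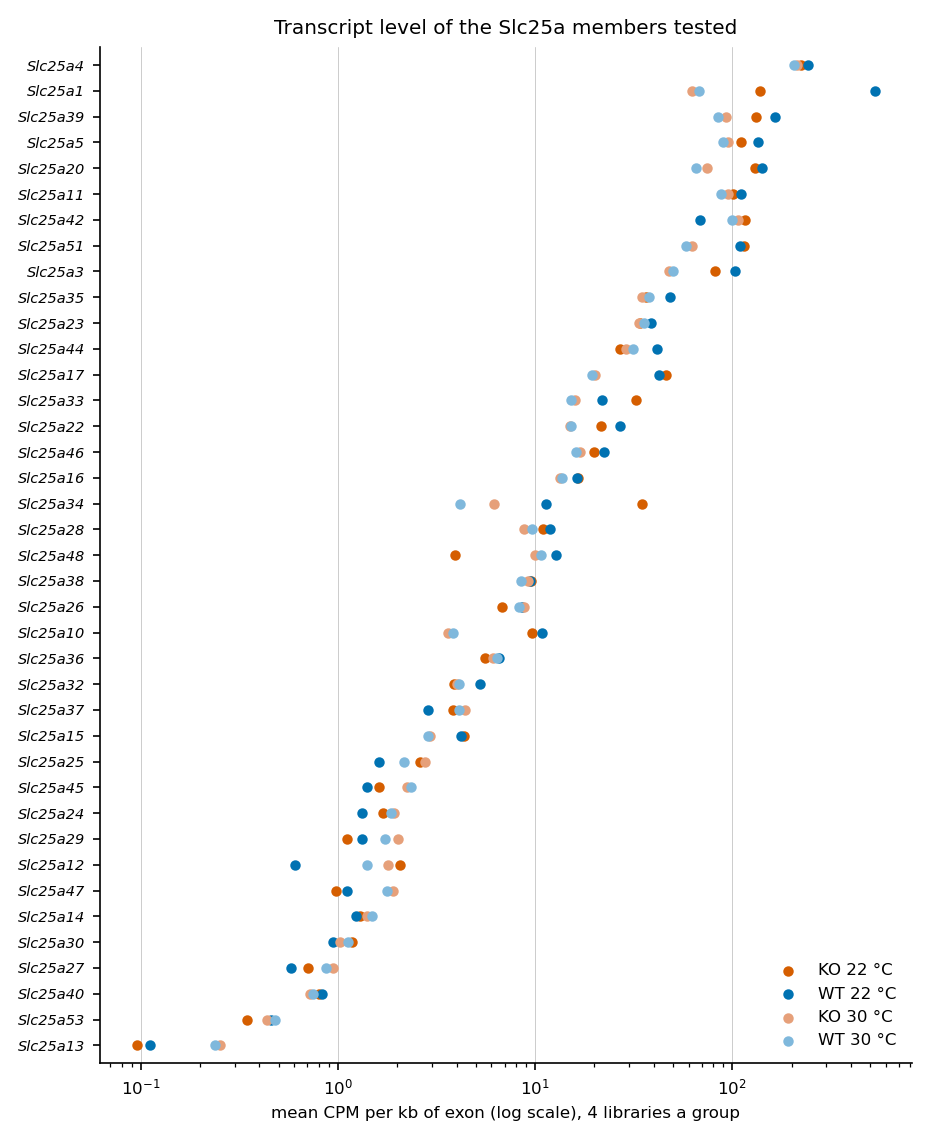
Mean level of 39 tested members in each group, in CPM per kb of exon on a log axis, ordered by the mean over all libraries. Slc25a1 lies at 138 in KO and 529.8 in WT at 22 °C and at 62.5 in KO and 67.6 in WT at 30 °C, while the 4 points of Slc25a4 lie between 205 and 241.

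At 22 °C the knockout changed 13 of the 40 members (32.5%), where 17.6% of all 14103 genes were called. The citrate carrier Slc25a1 and the choline carrier Slc25a48 fell the furthest, and the members that fell also included Slc25a44, Slc25a35, Slc25a5, Slc25a3, Slc25a32 and Slc25a26. Slc25a34, Slc25a42, Slc25a33 and Slc25a37 rose. That made 4 higher (10%) against 7.52% of all genes, and 9 lower (22.5%) against 10.1%. The median log2 fold change was -0.13 over the members and 0.02 over all genes. Leaving out KO replicate 1, the muscle-bearing one, left 4 higher and 4 lower, and leaving out KO replicate 3 left 4 higher and 5 lower. Without all 4 muscle-bearing libraries 2 of the 4 were still called higher, Slc25a34 and Slc25a42, and 4 of the 9 lower. A fit on only the 8 libraries at 22 °C gave 1 higher and 3 lower. With the Dbp and Arntl difference as a covariate the counts were 1 higher, Slc25a33, and 1 lower, Slc25a1.

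At 30 °C the knockout changed none of the 40 members by edgeR's quasi-likelihood test, nor by DESeq2 or limma-voom, and 0 had an unadjusted p under 0.05. Over all genes 6 were called (0.0425%), 0.0284% higher and 0.0142% lower, and 4.31% had an unadjusted p under 0.05. Member log2 fold changes lay between -0.15 and 0.59, with a median of 0.06 against 0.02 over all genes.

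The test of the difference between the knockout effects (22 °C minus 30 °C) called 3 members lower, with Slc25a1 and Slc25a48 the largest differences, and 0 higher. Over all genes it called 3.14%, of which 2.39% lower and 0.752% higher. An unadjusted p under 0.05 was reached by 10 of the 40 members, 8 lower and 2 higher, and by 21.1% of all genes. By limma-voom with quality weights 2 members were called higher, Slc25a33 and Slc25a42. Slc25a5 (adjusted p = 0.0688) and Slc25a44 (adjusted p = 0.0727) missed the threshold. With the clock covariate the call for Slc25a1 held, at log2 -1.57, adjusted p = 0.0194, and that for Slc25a48 did not, at log2 -1.10, adjusted p = 0.28.

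At 22 °C against 30 °C more members rose than fell in both genotypes, and the citrate, phosphate and acylcarnitine carriers Slc25a1, Slc25a3 and Slc25a20 were among those that rose. In KO 18 of the 40 changed, 13 higher (32.5%) and 5 lower (12.5%), where 26.7% of all genes were called, 13.8% higher and 13% lower. In WT 23 changed, 17 higher (42.5%) and 6 lower (15%), where 38.3% of all genes were called, 20.5% higher and 17.8% lower. The median log2 fold change was 0.07 over the members and 0.02 over all genes in KO, and 0.26 and -0.03 in WT. Upper-quartile scaling gave 1179 genes higher and 2540 lower in KO, where the main scaling gave 1943 and 1829. In WT it gave 2196 higher and 3382 lower, where the main scaling gave 2897 and 2509, and moved the median of all genes to -0.13. Under it 11 members were higher and 6 lower in KO, and 15 higher and 7 lower in WT. All 13 members that rose in KO had also risen in WT, where they made up 76.5% of those that rose. They were Slc25a1, Slc25a3, Slc25a5, Slc25a10, Slc25a15, Slc25a17, Slc25a20, Slc25a22, Slc25a33, Slc25a34, Slc25a39, Slc25a46 and Slc25a51. Slc25a13 and Slc25a47 were called lower in both genotypes, 2 of the 5 called lower in KO and of the 6 in WT. The share of all genes with the same call in both genotypes was not computed. These overlaps are therefore not read as a trait of the members. Slc25a13 passed the count filter only through the 30 °C libraries, of which 7 of 8 reached the filter's 0.626 CPM against 1 of 8 at 22 °C, so the filter favoured this direction. With the muscle covariate, which kept all libraries, 12 members were called higher and 5 lower in KO. The fit without the muscle-bearing libraries lacked KO replicate 1 at 22 °C and KO replicates 1 and 2 at 30 °C. Over all genes it called 2115 in KO against 3772, and the part of fewer libraries in this was not tested. In that fit 8 of the 13 members were still called higher in KO and 2 of the 5 lower. The calls lost were those of Slc25a5, Slc25a10, Slc25a22, Slc25a39 and Slc25a46 among the higher and Slc25a13, Slc25a29 and Slc25a47 among the lower. With the clock covariate 10 were higher and 1 lower in KO, and the calls of Slc25a13 and Slc25a47 were lost there too.

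**Figure D2:**
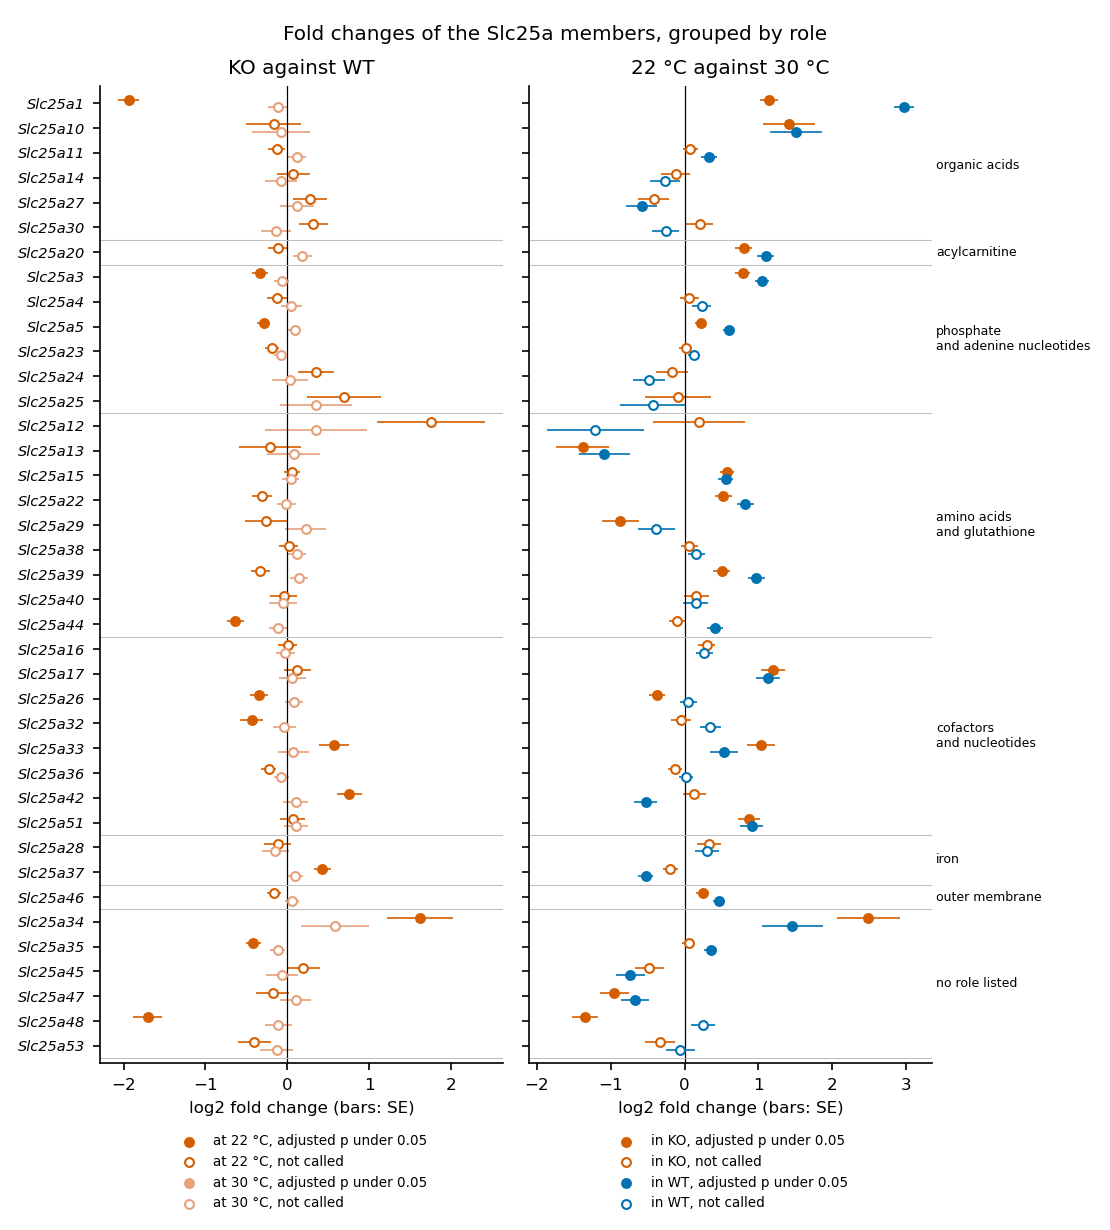
Log2 fold changes with SE for 39 tested members, grouped by role. The left panel sets KO against WT at each temperature and the right panel sets 22 °C against 30 °C in each genotype; filled points have an adjusted p under 0.05, and none is filled for KO against WT at 30 °C. Slc25a1 spans -1.94 in KO against WT at 22 °C and 2.97 for 22 °C against 30 °C in WT.

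**Figure D3:**
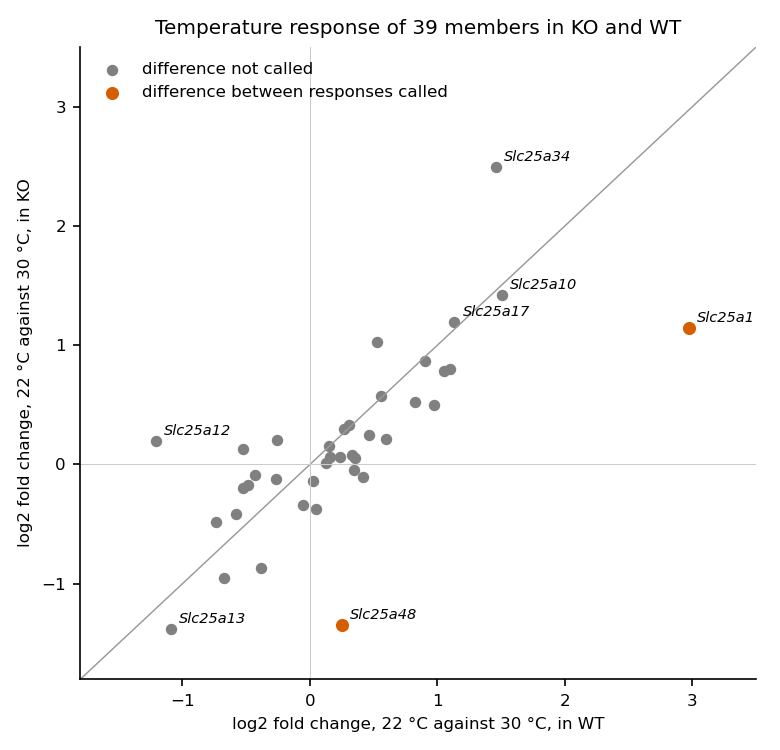
Log2 fold change for 22 °C against 30 °C in KO (vertical axis) and in WT (horizontal axis), 1 point a member, with the line of equal change. The 2 orange members, Slc25a1 at 1.14 in KO and 2.97 in WT and Slc25a48 at -1.35 in KO and 0.25 in WT, lie below the line and were called in the test of the difference.

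With the knockout at 22 °C, 17.6% of all genes were called. Among carriers of organic acids, 1 of 6 tested members changed there, and that was the citrate carrier Slc25a1. At 22 °C it had 343, 278, 325 and 249 CPM in KO and 1235, 1339, 1008 and 1003 CPM in WT. The 30 °C libraries had 160.1, 129.8, 126 and 125 CPM in KO and 139, 140.3, 166 and 139.9 CPM in WT. Every WT library at 22 °C was above every other library, the KO libraries at 22 °C came next, and the genotypes overlapped at 30 °C. The knockout effect at 22 °C was log2 -1.94, SE 0.13, adjusted p = 2.66e-07, and at 30 °C log2 -0.11, SE 0.12, adjusted p = 0.998. The response to 22 °C was log2 1.14, SE 0.13, adjusted p = 2.61e-05 in KO and log2 2.97, SE 0.13, adjusted p = 4.85e-09 in WT. The difference between the knockout effects was log2 -1.83, SE 0.18, adjusted p = 8.27e-05. These calls held in every alternative fit and with each library left out.

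The dicarboxylate carrier Slc25a10 and the 2-oxoglutarate-malate carrier Slc25a11 were not called for the knockout at either temperature. Slc25a10 averaged 33.4 ± 15.7 CPM in KO and 37.6 ± 16.5 CPM in WT at 22 °C, and 12.5 ± 3.20 CPM in KO and 13.2 ± 2.56 CPM in WT at 30 °C. It rose at 22 °C by log2 1.42 in KO and 1.504 in WT. Its exons overlap those of an antisense gene, Gm11788. The change of Slc25a11 at 22 °C was 0.08 in KO, not called, and 0.33 in WT, where it was called. That call held only without WT replicate 3 or 4 at 22 °C among the 8 fits that left out a library. The difference between the responses was not called. Slc25a27, a relative of the uncoupling proteins, fell at 22 °C in WT by 0.58 on the log2 scale, a call that held only without WT replicate 1 at 22 °C among 8 such fits. Slc25a14 and Slc25a30 were called nowhere.

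The 8 enzymes and carriers around cytosolic citrate and lipid synthesis, a list chosen for its link to Slc25a1, were all lower in KO at 22 °C, and 6 of them were also called in the test of the difference. Acaca, acetyl-CoA carboxylase, had log2 fold change -2.34 for KO against WT at 22 °C and 3.19 for 22 °C against 30 °C in WT. Acly, which cleaves exported citrate, had -2.80 and 3.40, and Fasn, fatty acid synthase, had -2.94 for the knockout. At 22 °C 6 rose in KO and all 8 rose in WT, and at 30 °C 0 of 8 were called for the knockout. The comparisons at 22 °C share the WT libraries kept at 22 °C. Both genes of the mitochondrial pyruvate carrier, Mpc1 and Mpc2, had the same calls, lower in KO at 22 °C by 0.76 and 0.72 on the log2 scale and higher at 22 °C in both genotypes. For these 2 genes the difference between the knockout effects was -0.86 and -0.96, both called.

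The carnitine-acylcarnitine carrier Slc25a20, which passes fatty acids to the matrix for oxidation, rose at 22 °C in both genotypes and was not called for the knockout. Its levels at 22 °C were 506, 674, 660.2 and 679 CPM in KO and 768, 795, 601 and 566 CPM in WT. Those at 30 °C were 368, 357, 342 and 380.3 CPM in KO and 328, 299, 324 and 323 CPM in WT. All 22 °C libraries lay above all 30 °C libraries, and at 30 °C the KO libraries lay above the WT libraries without a call (log2 0.18, SE 0.11, adjusted p = 0.998). For 22 °C against 30 °C the change was log2 0.80, SE 0.11, adjusted p = 0.000184 in KO and log2 1.10, SE 0.11, adjusted p = 4.59e-06 in WT. Of 5 other genes of the carnitine shuttle, Cpt2, the inner-membrane carnitine palmitoyltransferase, fell in KO at 22 °C (-0.42, log2) and Slc22a5, a plasma membrane carnitine transporter, rose (0.44). At 22 °C 4 rose in KO, and 2 rose and 1 fell in WT, with Cpt2 at 0.92 in KO and 1.39 in WT. None of the 5 was called for the knockout at 30 °C or in the test of the difference.

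The carriers that supply ATP synthase moved less than Slc25a1. The phosphate carrier Slc25a3 had 446, 423, 443 and 508 CPM in KO and 623, 669, 531 and 474 CPM in WT at 22 °C. At 30 °C there were 269.9, 262, 263 and 262 CPM in KO and 271, 287, 293 and 258 CPM in WT. All 22 °C libraries exceeded all 30 °C libraries, and KO and WT overlapped at 22 °C, where KO replicate 4 was above WT replicate 4. The knockout effect there was log2 -0.34, SE 0.095, adjusted p = 0.0257, and the call was lost when any 1 of KO replicates 1, 2 and 3 or WT replicates 1 and 2 was left out. With the clock covariate that log2 fold change was 0.03, adjusted p = 0.981. The temperature response was log2 0.78, SE 0.096, adjusted p = 6.24e-05 in KO and log2 1.05, SE 0.096, adjusted p = 1.53e-06 in WT.

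The ADP/ATP carrier Slc25a5 (ANT2) had 168, 189, 182 and 190.4 CPM in KO and 226, 249, 205 and 211 CPM in WT at 22 °C, with no overlap. It had 165, 142, 167 and 153 CPM in KO and 152, 145, 149 and 143 CPM in WT at 30 °C, where the groups overlapped. The knockout effect at 22 °C, log2 -0.29, SE 0.076, adjusted p = 0.018, was no longer called when KO replicate 1 was left out or in 4 of 12 other fits. It rose at 22 °C in KO (log2 0.22, SE 0.076, adjusted p = 0.0468) and in WT (log2 0.60, SE 0.077, adjusted p = 2.92e-05). The call in KO held only without KO replicate 1 at 22 °C among the 8 fits that left out a library, and was lost in 8 of 12 other fits, while that in WT held in all.

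Slc25a4 (ANT1), the ADP/ATP carrier of heart and muscle, was called nowhere. Its 22 °C libraries had 672, 471, 455 and 491 CPM in KO and 603, 686, 507 and 473 CPM in WT. The 30 °C libraries had 503, 523, 494 and 481 CPM in KO and 451, 546, 457 and 476 CPM in WT. The highest KO value was in the muscle-bearing replicate 1. For the knockout at 22 °C the estimate was log2 -0.12, SE 0.13, adjusted p = 0.541, and without the muscle-bearing libraries log2 -0.28, adjusted p = 0.177. The ATP-Mg/phosphate carriers Slc25a23, Slc25a24 and Slc25a25 were also called nowhere. Among 14 tested genes of ATP synthase, 3 fell in KO at 22 °C, Atp5a1 by 0.39, Atp5f1 by 0.39 and Atp5c1 by 0.30 on the log2 scale. Cold raised 6 of the 14 in KO and 13 in WT, and 1, Atp5a1, was called in the test of the difference (-0.45).

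**Figure D4:**
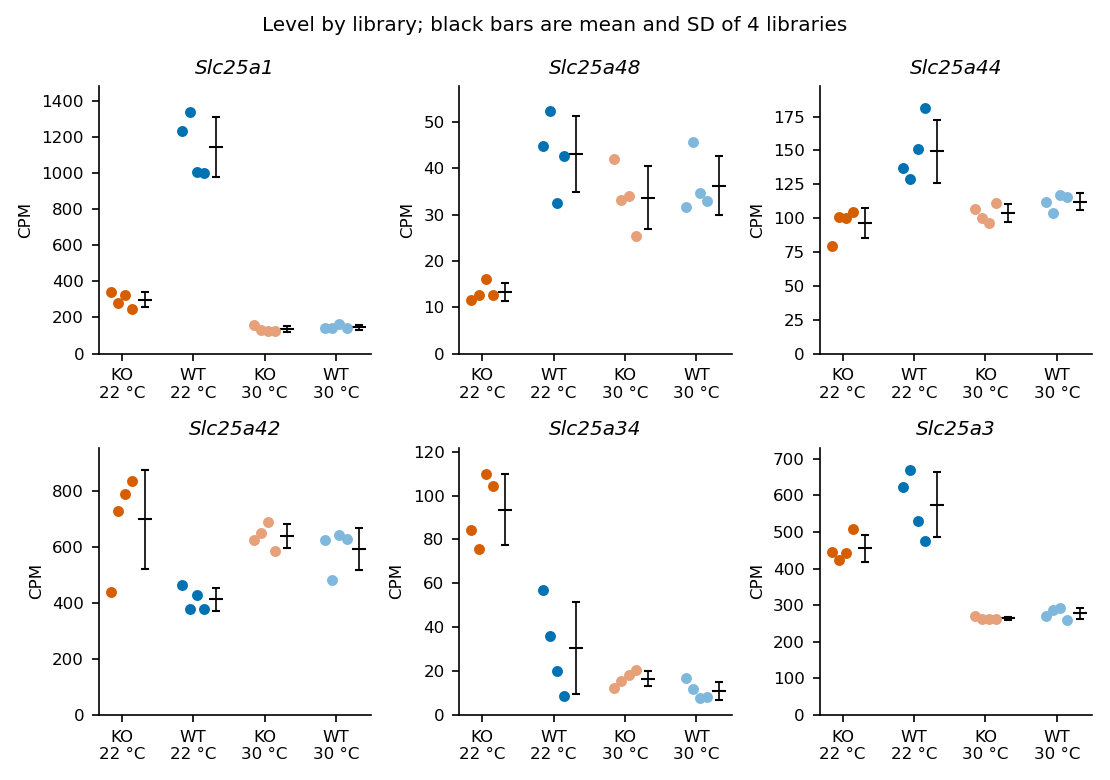
CPM in each library for 6 members, with mean and SD of 4 libraries a group. For Slc25a1 the KO libraries at 22 °C lie between 249.0 and 343.3, the WT libraries at 22 °C between 1003 and 1339, and all 30 °C libraries between 125.0 and 166.1.

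Of the 9 tested carriers of amino acids and glutathione, 1 changed with the knockout at 22 °C, where 17.6% of all genes were called. Slc25a44, which carries branched-chain amino acids into brown fat mitochondria, had 79.7, 101.1, 100.4 and 104 CPM in KO and 137, 129, 151 and 181 CPM in WT at 22 °C. Its 30 °C values were 107, 99.9, 96.6 and 111 CPM in KO and 112, 104, 117 and 116 CPM in WT. The 22 °C groups did not overlap, while the 30 °C groups did, and the KO libraries at 22 °C were near or below those at 30 °C. The knockout effect was log2 -0.63, SE 0.11, adjusted p = 0.00127. The temperature response was log2 -0.10, SE 0.11, adjusted p = 0.5 in KO, not called, and log2 0.41, SE 0.11, adjusted p = 0.00652 in WT. Of 7 enzymes of branched-chain amino acid oxidation, 2 rose in KO at 22 °C, the transaminase Bcat2 by log2 0.61 and the dehydrogenase phosphatase Ppm1k by 0.68, and 2 fell, among them Dld (-0.39). At 22 °C 6 of the 7 rose in KO, and 5 rose and 1 fell in WT, with none called for the knockout at 30 °C or in the test of the difference.

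The glutathione carrier Slc25a39 had 334, 376, 355 and 385 CPM in KO and 489.6, 565, 429 and 338 CPM in WT at 22 °C. The 30 °C groups had 263, 242, 257 and 263 CPM in KO and 243, 224, 232 and 228 CPM in WT. Each 22 °C library was above each 30 °C library, and the genotypes overlapped. It rose at 22 °C in KO (log2 0.50, SE 0.11, adjusted p = 0.00518) and in WT (log2 0.97, SE 0.12, adjusted p = 1.48e-05), and the knockout estimate at 22 °C was log2 -0.33, SE 0.11, adjusted p = 0.0579. Its paralog Slc25a40 was called nowhere. Of 6 glutathione genes, 3 fell in KO at 22 °C, the peroxidases Gpx4 (-0.71, log2) and Gpx1 (-0.56) and Gclm (-0.23), a subunit of the synthesis enzyme. At 22 °C 2 rose in KO and 4 in WT, none was called for the knockout at 30 °C, and none in the test of the difference.

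The glutamate carrier Slc25a22 had 121, 125, 144 and 129 CPM in KO and 183, 189, 132 and 139 CPM in WT at 22 °C. It had 86.5, 82.8, 86.4 and 105 CPM in KO and 91.9, 84.1, 99.7 and 88.3 CPM in WT at 30 °C. The temperatures did not overlap in either genotype, and the response was log2 0.52, SE 0.12, adjusted p = 0.00461 in KO and log2 0.82, SE 0.12, adjusted p = 7.75e-05 in WT. The ornithine carrier Slc25a15 rose by log2 0.57 in KO and 0.56 in WT. Slc25a13, an aspartate-glutamate carrier, had 3, 7, 6 and 7 counts in KO and 7, 5, 11 and 5 counts in WT at 22 °C, and 12, 22, 9 and 18 counts in KO and 9, 15, 19 and 19 counts in WT at 30 °C. It averaged 0.362 ± 0.106 CPM in KO and 0.426 ± 0.178 CPM in WT at 22 °C, and 0.956 ± 0.269 CPM in KO and 0.909 ± 0.279 CPM in WT at 30 °C. The log2 estimates for 22 °C against 30 °C were -1.38 in KO and -1.09 in WT, and with no filter log2 -1.38, adjusted p = 0.0219 in KO and log2 -1.09, adjusted p = 0.047 in WT. The WT call was lost without any 1 of WT replicates 1 and 4 at 22 °C and WT replicates 3 and 4 at 30 °C. Of 4 enzymes of the malate-aspartate shuttle that these carriers complete, Mdh1 fell in KO at 22 °C (-0.53, log2) and was called in the test of the difference (-0.74). At 22 °C in KO 1 rose, Mdh2, and Got2, the mitochondrial aspartate aminotransferase, fell by 1.08. In WT 2 rose and Got2 fell by 1.35. None was called for the knockout at 30 °C.

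Slc25a12, the aspartate-glutamate carrier of muscle and brain, was called in none of the comparisons in the main edgeR fit, and its level moved with the muscle markers. It had 43.1, 4.22, 4.41 and 8.97 CPM in KO and 4.19, 4.48, 4.13 and 5.11 CPM in WT at 22 °C. It had 12.5, 24.9, 7.63 and 7.73 CPM in KO and 6.18, 17.9, 6.51 and 10.8 CPM in WT at 30 °C. The 4 muscle-bearing libraries were its 4 highest. The knockout estimate at 22 °C was log2 1.76, SE 0.66, adjusted p = 0.0752, and without KO replicate 1 it was log2 0.39, adjusted p = 0.608. For 22 °C against 30 °C in WT the estimate was log2 -1.21, SE 0.66, adjusted p = 0.16, and without the muscle-bearing libraries log2 -0.81, adjusted p = 0.0326.

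**Figure D5:**
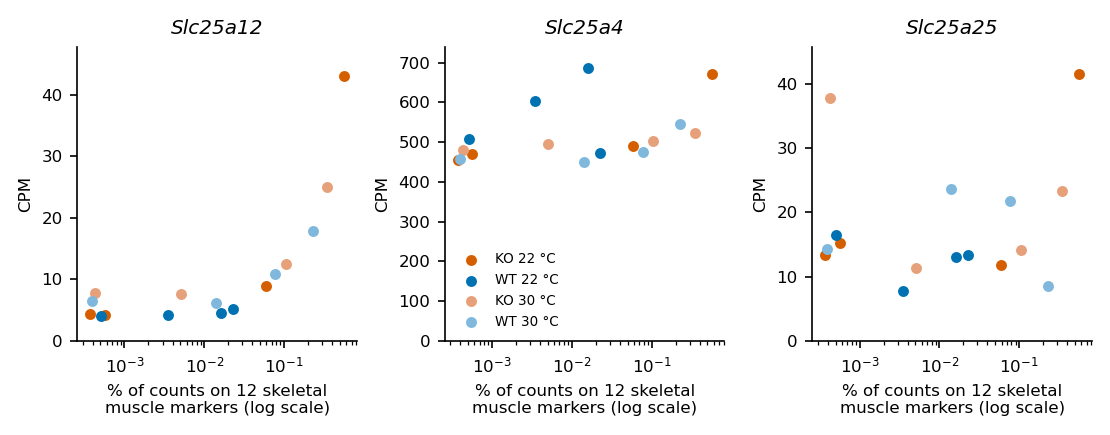
CPM of Slc25a12, Slc25a4 and Slc25a25 in each library against the percent of counts on 12 skeletal muscle markers (log axis), coloured by group. Slc25a12 is highest, at 43.1 CPM, in the library with 0.565% and lies between 4.13 and 10.8 CPM in the libraries under 0.1%, whereas Slc25a25 also has a high value, 37.9 CPM, in a library with almost no muscle counts.

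Among cofactor and nucleotide carriers, 2 of 9 tested members rose and 3 fell with the knockout at 22 °C. Of all genes, 7.52% were called higher and 10.1% lower. Slc25a42, which brings coenzyme A into the matrix, had 441, 728, 789.9 and 837 CPM in KO and 463, 379, 429 and 379.9 CPM in WT at 22 °C. At 30 °C it had 627, 652, 689 and 588 CPM in KO and 625, 483, 644 and 629 CPM in WT. KO replicate 1, the muscle-bearing library, lay within the WT range at 22 °C and the other 3 lay above it. The rise in KO was log2 0.76, SE 0.16, adjusted p = 0.00479, and without that library log2 0.92, adjusted p = 5.96e-05. At 22 °C against 30 °C the estimate in KO was log2 0.13, SE 0.16, adjusted p = 0.574, and in WT it fell (log2 -0.53, SE 0.16, adjusted p = 0.015). The difference between the knockout effects was not called with all libraries (log2 0.66, SE 0.22, adjusted p = 0.112) and was called without KO replicate 1 at 22 °C (log2 0.82, adjusted p = 0.00739).

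The peroxisomal carrier Slc25a17 rose at 22 °C in both genotypes. At 22 °C there were 93.4, 138, 144 and 152 CPM in KO and 159, 120.2, 102 and 103 CPM in WT. At 30 °C there were 51.4, 55.4, 51.9 and 71.5 CPM in KO and 58.6, 51.3, 52.0 and 58.6 CPM in WT. The temperatures did not overlap in either genotype. The response was log2 1.19, SE 0.17, adjusted p = 0.000154 in KO and log2 1.13, SE 0.17, adjusted p = 8.55e-05 in WT, with a difference between them, not called, of log2 0.06 (SE 0.23). Slc25a51, the NAD carrier of human cells, averaged 631 ± 34.0 CPM in KO and 602 ± 179 CPM in WT at 22 °C, and 346 ± 46.2 CPM in KO and 321 ± 21.2 CPM in WT at 30 °C. It rose by log2 0.87 in KO and 0.91 in WT. Slc25a33, a pyrimidine nucleotide carrier, rose in KO at 22 °C by log2 0.57 (adjusted p = 0.0468) and rose with cold in KO (1.03) and WT (0.53). The call with cold in WT held in only 2 of the 8 fits that left out a library, those without WT replicate 4 of either temperature. The folate and FAD carrier Slc25a32 (-0.43, adjusted p = 0.0442) and the S-adenosylmethionine carrier Slc25a26 (-0.34, adjusted p = 0.0446) fell in KO at 22 °C. These 3 knockout calls lay near the threshold. That of Slc25a33 held only without KO replicate 1 or WT replicate 2, that of Slc25a32 only without WT replicate 2, and that of Slc25a26 only without KO replicate 4 or WT replicate 1, among the 8 fits that left out a library. Of 5 mitochondrial one-carbon genes, Mthfd2l fell in KO at 22 °C (-0.53, log2). At 22 °C 1 fell in KO, Aldh1l2 (-1.39), and in WT Mthfd2l rose and 2 fell, with Aldh1l2 at -1.72. None was called for the knockout at 30 °C or in the test of the difference.

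The iron importer Slc25a37, mitoferrin-1, had 25.1, 23.6, 21.0 and 22.6 CPM in KO and 16.9, 14.9, 16.9 and 19.99 CPM in WT at 22 °C. Its levels at 30 °C were 27.5, 26.4, 29.6 and 22.3 CPM in KO and 27.0, 23.6, 25.3 and 23.2 CPM in WT. All KO libraries at 22 °C were above the WT libraries, which were the lowest of the 4 groups. The knockout effect was log2 0.43, SE 0.10, adjusted p = 0.012, and without the muscle-bearing libraries log2 0.38, adjusted p = 0.0666. The fall at 22 °C in WT was log2 -0.53, SE 0.10, adjusted p = 0.000939. In KO the change was not called (log2 -0.20, SE 0.10, adjusted p = 0.17). The difference between the knockout effects was not called (log2 0.33, SE 0.15, adjusted p = 0.205). Erythroid markers, whose cells use mitoferrin-1 for heme, held 0.0180% to 0.0334% of counts in KO and 0.0186% to 0.0436% in WT at 22 °C, and 0.0269% to 0.0437% in KO and 0.0226% to 0.0370% in WT at 30 °C, overlapping in every pair of groups. Mitoferrin-2, Slc25a28, was called nowhere. Of 6 genes for iron-sulfur clusters and heme, 1, Nfs1, fell in KO at 22 °C (-0.25, log2). Cold raised 3 and lowered 1 in KO, and raised 4 and lowered 1 in WT, with Fech, ferrochelatase, at 0.37 in KO and 0.59 in WT, while 0 were called for the knockout at 30 °C or in the test of the difference.

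The outer membrane protein Slc25a46, which acts in mitochondrial dynamics, rose at 22 °C by log2 0.24 in KO and 0.46 in WT and was not called for the knockout. The call in KO held only without KO replicate 1 at 22 °C among the 8 fits that left out a library, and was lost in 6 of 12 other fits, while that in WT held in all.

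Slc25a48, known as a choline carrier, showed the second largest knockout fall at 22 °C among the members. It had 11.6, 12.6, 16.1 and 12.5 CPM in KO and 44.7, 52.4, 32.4 and 42.6 CPM in WT at 22 °C. The 30 °C libraries held 42.1, 33.1, 34.0 and 25.3 CPM in KO and 31.6, 45.7, 34.7 and 33.0 CPM in WT. The KO libraries at 22 °C were below all other 12 libraries, and the other 3 groups overlapped. The knockout effect was log2 -1.70, SE 0.18, adjusted p = 1.76e-05 at 22 °C and log2 -0.11, SE 0.17, adjusted p = 0.998 at 30 °C, with a difference of log2 -1.59, SE 0.24, adjusted p = 0.00233. The temperature response was log2 -1.35, SE 0.18, adjusted p = 9.85e-05 in KO and log2 0.25, SE 0.17, adjusted p = 0.261 in WT. The call at 22 °C held in all other fits but not with the clock covariate, at log2 -1.12, adjusted p = 0.137.

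Slc25a34 rose with the knockout at 22 °C. It had 84.2, 75.7, 109.8 and 104 CPM in KO and 56.9, 36.1, 20.1 and 8.48 CPM in WT at 22 °C. At 30 °C the values were 12.3, 15.5, 18.04 and 20.6 CPM in KO and 16.7, 11.7, 7.72 and 8.10 CPM in WT. The KO libraries at 22 °C were the 4 highest, and the WT libraries at 22 °C were spread widely and overlapped the 30 °C libraries. The rise in KO was log2 1.62, SE 0.41, adjusted p = 0.0137. At 22 °C against 30 °C it rose in KO (log2 2.49, SE 0.42, adjusted p = 0.000672) and in WT (log2 1.46, SE 0.42, adjusted p = 0.0119), and the WT call was lost without WT replicate 1 at 22 °C. The difference between the knockout effects was not called (log2 1.03, SE 0.58, adjusted p = 0.316).

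Slc25a35 had 127, 132, 133 and 142 CPM in KO and 203, 154, 187 and 167 CPM in WT at 22 °C. At 30 °C its libraries had 136, 132, 128 and 118 CPM in KO and 124, 141, 155 and 138 CPM in WT. The genotypes did not overlap at 22 °C and did at 30 °C. Slc25a35 fell in KO at 22 °C (log2 -0.41, SE 0.090, adjusted p = 0.00664) and rose with cold in WT (log2 0.35, SE 0.090, adjusted p = 0.00605). The knockout call was lost in the fit on only the groups compared and with the clock covariate. Cold in KO gave log2 0.05, SE 0.090, adjusted p = 0.693, not called. The difference between the knockout effects was not called (log2 -0.30, SE 0.13, adjusted p = 0.193). Exons of Slc25a35 overlap those of Rangrf on the other strand. Slc25a45 fell at 22 °C in WT by 0.73 on the log2 scale. Slc25a47 fell by 0.95 in KO and 0.67 in WT. Its neighbour Slc25a29, a basic amino acid carrier that lies 162 bases away on chromosome 12 on the opposite strand, fell in KO by 0.87, with -0.38 in WT. The call for Slc25a29 was lost without KO replicate 4 at 22 °C.

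In all, 27 of the 40 tested members were called in at least 1 of the comparisons between groups and 13 in none. The matching share of all genes was not computed, and 38.3% of all genes were called for cold in WT alone. Besides those already named, the uncalled members were Slc25a16, Slc25a36, Slc25a38 and Slc25a53. The family members under other names, the uncoupling proteins and the MTCH proteins, gave 1 call for the knockout at 30 °C that no Slc25a member gave. Ucp2 rose in KO by log2 0.62 (adjusted p = 0.00785) at 30 °C and by 0.72 (adjusted p = 6.33e-05) at 22 °C. It fell at 22 °C by 1.03 in KO and 1.13 in WT, whereas Ucp1 rose by 2.00 in KO and 2.03 in WT. Of these 5 genes, 1 rose and 1 fell in KO at 22 °C, 3 rose and 1 fell with cold in KO, and 4 rose and 1 fell in WT. None was called in the test of the difference.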

How the data were processed

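The authors deposited 1 table of unnormalised read counts, with Ensembl genes in rows and the 16 libraries in columns. The submitters' processing notes list STAR 2.4.2a, FastQC 0.10.1 and edgeR 3.14.0, as well as the builds mm10 and GRCm38, without saying what each did. How reads were counted, and whether strand was used, is not stated, so a gene and its antisense partner may share reads. Symbols were matched for 37607 of 38924 identifiers, and the 1317 others held at most 0.131% of a library's counts. Coordinates and exon lengths were taken from GENCODE M21 on GRCm38 and promoters from RefSeq.

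In R 4.3.3, edgeR 4.0.16 kept 14103 of 24818 genes with a count (filterByExpr, minimum count 10), which held at least 99.9% of the counts of each library. All 16 libraries entered 1 quasi-likelihood fit with a term per group and TMM factors, and 5 comparisons were tested. A gene with a Benjamini-Hochberg adjusted p under 0.05 over all genes tested was called. CPM are TMM-scaled, and an SE is the size of the log2 fold change over the root of the F statistic. The typical biological coefficient of variation over all genes was 22.5%. Counting error was not compared with the spread between libraries for each member. No pair of libraries within a group had counts alike within sampling noise.

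The members, the 10 neighbouring gene lists and the 6 marker lists were chosen with earlier results of these data known. Values by library are given for up to 6 called members with the smallest p in each comparison and for the 6 members with the highest level per kb, with Slc25a12 and lists of low-count members added after their values were seen. The counts include 1 member that is not reported here by name. Of each neighbouring list, calls are counted and up to 3 genes with the smallest p named. Alternatives were other scaling factors, DESeq2 1.42.0, limma-voom with quality weights (limma 3.58.1), no filter, a stricter one (at least 1 CPM in 4 libraries with a mean of 20 counts), a replicate block, fits restricted to the groups compared, a muscle covariate, leaving out the muscle-bearing libraries, each library left out in turn and, chosen after seeing the data, a clock covariate. The fits were tested on simulated data.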

Additional observations from a re-analysis of the deposited data

Results flagged for a closer look

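In 18 of 160 sets of 4 libraries (40 members in 4 groups), a library lay far from the other 3 of its group by Dixon's 95% criterion, which chance alone meets in about 1 of 20 sets. KO replicate 1 at 22 °C, the library with the most skeletal muscle counts (0.565%), accounted for 8 of them. In it Slc25a12 was high at 43.1 CPM, Slc25a25 at 41.5 CPM and Slc25a4 at 671.6 CPM. In the same library Slc25a13 was low at 0.204 CPM, Slc25a20 at 506.3 CPM, Slc25a33 at 50.03 CPM, Slc25a44 at 79.7 CPM and Slc25a51 at 580.0 CPM. The part of muscle tissue in these values was not tested beyond the fits without that library and the fit with the muscle covariate.

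In KO at 30 °C, replicate 1 was high for Slc25a1 (160.1 CPM), replicate 3 low for Slc25a29 (4.91 CPM), and replicate 4 high for Slc25a22 (105.3 CPM) and low for Slc25a24 (4.52 CPM). In WT at 22 °C, replicate 1 was high for Slc25a51 (869 CPM), replicate 2 low for Slc25a30 (3.11 CPM) and replicate 4 low for Slc25a29 (1.74 CPM). In WT at 30 °C, replicate 2 was low for Slc25a20 (298.7 CPM) and Slc25a42 (483 CPM), and replicate 3 was high for Slc25a1 (166 CPM).

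The knockout effect differed between the temperatures by edgeR's interaction test (22 °C minus 30 °C, log2) for Slc25a1 (-1.83) and Slc25a48 (-1.59).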

How the results depend on the processing

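Other scaling factors and filters kept every count of called members within 1.5 times, and of the called members named in the text 1 changed direction, Slc25a3 for the knockout at 22 °C, which stood at 0.03 (log2) with the clock covariate. For the knockout at 22 °C (4 higher, 9 lower), the fit on only the groups compared gave 1 higher and 3 lower, leaving out the muscle-bearing libraries gave 2 higher and 4 lower of the 40, and the clock covariate gave 1 higher and 1 lower. Leaving out each library in turn gave 3 to 4 higher and 4 to 9 lower. For 22 °C against 30 °C in KO (13 higher, 5 lower), there were 10 higher and 1 lower with the clock covariate and 8 higher and 2 lower of the 40 after dropping the muscle-bearing libraries, and 4 to 5 lower with each library left out. In the test of the difference between knockout effects (0 higher, 3 lower), DESeq2 gave 5 lower and limma-voom 2 higher and 5 lower, leaving out the muscle-bearing libraries gave 1 higher, and the clock covariate gave 1 lower. With each library left out that test gave 0 to 1 higher (1 without KO replicate 1 at 22 °C) and 2 to 5 lower (5 without WT replicate 4 at 22 °C). The cause was not tested. The clock measure and genotype did not overlap at 22 °C, so that covariate and the knockout can hardly be told apart there.

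Of the called members, those kept in every fit, left-out libraries included, were 1 of 13 for the knockout at 22 °C, 9 of 18 for cold in KO, 18 of 23 for cold in WT and 1 of 3 for the difference. Over all genes, the calls for the difference ranged from 23 (clock covariate) to 1085 (without WT replicate 4 at 22 °C) around 443, and those for the knockout at 22 °C were 634 on only the groups compared, 104 with the clock covariate and 1432 when muscle-bearing libraries were left out, against 2482. For cold in KO they were 6067 by limma-voom, 2208 with the clock covariate and 2115 when muscle-bearing libraries were dropped, against 3772. At 30 °C the knockout gave 22 by DESeq2 and 44 by limma-voom against 6.

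Replicate numbers did not clearly pair the libraries. Over 24 pairs of same-numbered libraries the correlation of deviations ran from -0.50 to 0.52, with 13 above 0.1. Of 16 libraries, 1 matched its own number best. These correlations cannot exclude that some libraries shared a litter or day. With the replicate block the knockout at 22 °C had 3 members higher and 6 lower, cold in KO 11 and 5, cold in WT 16 and 5, the difference 0 and 2, and the knockout at 30 °C 0. The 7 members under the filter, at most 35 counts in a library, entered the fit with no filter, and 2 of them the fit without the muscle-bearing libraries. Of these Slc25a31 was called higher in both fits, for the knockout at 22 °C and for cold in KO. It reached the main filter's CPM only in KO libraries at 22 °C, so entry to the fit without the muscle-bearing libraries favoured this direction.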

Other observations

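Slc25a31, the ADP/ATP carrier known from testis, stayed under the count filter and was tested in 2 alternative fits. It had 9, 11, 35 and 10 counts in KO and 0, 1, 4 and 5 counts in WT at 22 °C, and 0, 6, 0 and 2 counts in KO and 5, 4, 2 and 8 counts in WT at 30 °C. Each KO library at 22 °C was above each of the other 12 libraries, by as little as 1 count. The muscle-bearing KO library had the fewest of the 4 KO libraries at 22 °C. With no filter edgeR called it higher in KO against WT at 22 °C (adjusted p = 0.0385) and at 22 °C against 30 °C in KO (adjusted p = 0.0184). Without the muscle-bearing libraries the adjusted p were 0.0340 and 0.0337. Only KO libraries at 22 °C, 2 of them, reached the main filter's 0.626 CPM for Slc25a31. Entry to that fit therefore favoured the direction called, and it adds no separate support. It was named here after its values were seen, and the test of the difference between knockout effects did not call it (adjusted p = 0.139 with no filter and 0.178 without the muscle-bearing libraries).

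Pairs of members lie side by side in the genome. Slc25a41 and Slc25a23 are 2056 bases apart on chromosome 17, Slc25a54 and Slc25a24 are 6461 bases apart on chromosome 3, and Slc25a43 and Slc25a5 are 18448 bases apart on chromosome X. In each of these pairs 1 member was under the count filter and the other was tested.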
